A study of Mus musculus with 2 samples.

Results

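Cluster 6 was 1 of 9 mRNA clusters that the authors' labels give to the CD172a+ conventional type 2 dendritic cells (cDC2s) of papain-immunized mice. The paper describes a smaller set of cDC2 mRNA subclusters, over naive and papain cells together. The cluster numbers used here were not matched to those subclusters. Its members were all papain cells that carry this cluster number in the deposited cell labels. They were 430 of the 6190 papain cDC2s with a cluster number (6.95%, exact 95% interval 6.33 to 7.61%), out of 7596 cells of that library and 11067 cells of the series. The comparison group was the other 5760 numbered papain cells, referred to as the other cDC2s. In this CITE-seq experiment, mRNA and surface proteins, the latter through DNA-tagged antibodies, were counted in the same cells. B6 mice received OVA plus papain, a protease allergen, in both rear footpads, and the draining popliteal lymph nodes were taken 1 day later. Live MHCIIhi CD11c+ B220- cells were sorted from them. Before staining and sorting, nodes were digested with collagenase D, and any effect of this step on gene levels was not tested. The second library was made from unimmunized B6 mice, for which the methods name pooled skin-draining nodes and the labels popliteal nodes. Each condition was 1 library of cells from an unstated number of mice. No value has a replicate, no test was made, and every interval covers counting error only.

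Skin cDC2s take up antigen, mature and travel through lymph to the draining node, a journey that depends on the chemokine receptor CCR7. There they show peptides on MHC molecules to T cells and add costimulatory ligands and cytokines. Stimulated cells switch on immediate early genes, such as those of the FOS, EGR and NR4A families, without making new protein first, and many of the mRNAs are short-lived. NF-kB is a family of transcription factors held back by inhibitors of the IκB family, and several of these inhibitors are themselves NF-kB target genes.

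Cells of cluster 6 had low levels of immediate early, NF-kB-linked and inflammatory transcripts together with low Ccr7 and Cd83, while most other genes lay close to the other cDC2s. Expression was summed over cells and scaled to 1000000 UMIs (CPM), and ratios are log2((CPM + 1) of cluster 6 / (CPM + 1) of the other cDC2s). Of 2711 genes of at least 50 CPM in the higher group, 127 were at least 2-fold lower in cluster 6 (4.68%) and 4 were at least 2-fold higher (0.148%). These shares over all genes are the background for the counts given for gene lists below. The median log2 ratio over the 2711 genes was -0.01, with 5th and 95th percentiles of -0.90 and 0.37. At 1.5-fold, 230 genes were lower and 39 higher. For 110 of the 127 lower genes, cluster 6 had the lowest level of all 9 clusters. Their selection as lower genes favours this count, and the share over all 2711 genes is not given. The clusters were made from these same genes, so all ratios of gene expression describe the cells and test nothing.

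**Figure D1:**
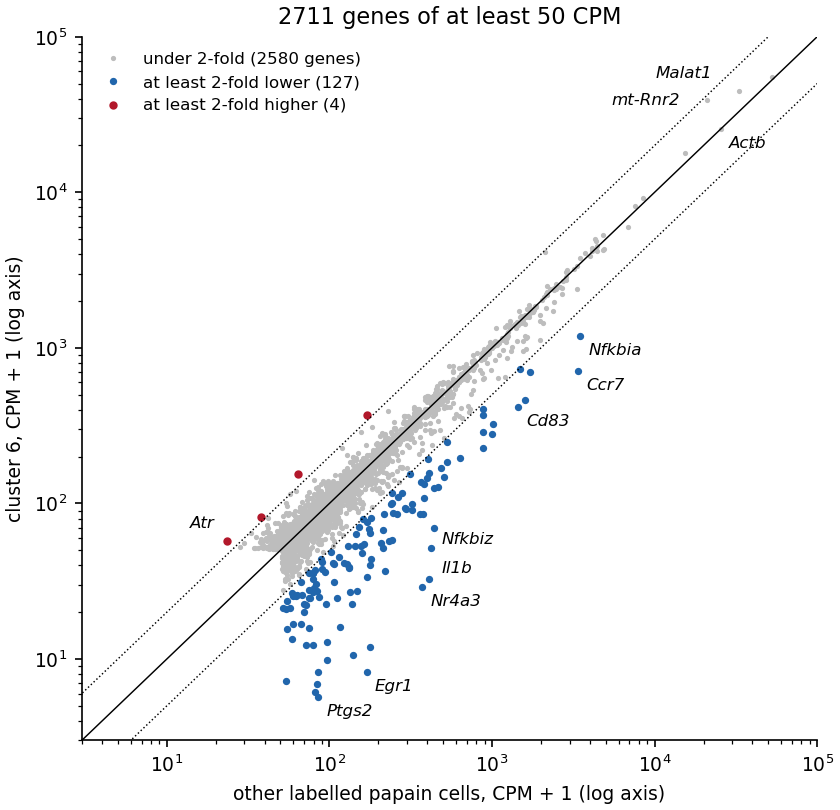
Each point is 1 of 2711 genes, with CPM + 1 in the other cDC2s on the x axis and in cluster 6 on the y axis, both logarithmic. The solid line marks equal levels and the dotted lines 2-fold differences; 127 genes lie below the lower dotted line and 4 above the upper one.

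Among immediate early genes the levels were low throughout. Of the 22 genes on the list 21 are in the data and 19 reached 50 CPM. All 19 had a log2 ratio below 0, 15 of them were at least 2-fold lower, and the median was -1.79. Egr1, a zinc finger transcription factor, had 7.24 CPM in cluster 6 (exact Poisson interval 5.10 to 9.99) and 168 CPM in the other cDC2s, a log2 ratio of -4.36 (-4.82 to -3.92). Its level in the other clusters ran from 12.1 CPM in cluster 7 to 266 CPM in cluster 8, so cluster 7 came close to cluster 6 for this gene. The orphan nuclear receptors parted cluster 6 from every other cluster more widely. Nr4a3 was at 28.0 CPM against 275 to 552 CPM in the other 8 clusters (log2 ratio to all other cDC2s -3.67, -3.92 to -3.43). Nr4a1 was at 5.09 CPM against 45.3 to 121 CPM (-3.74, -4.27 to -3.24). Klf2, a transcription factor of quiescence and trafficking, was at 35.6 CPM against 142 to 404 CPM (-2.57). Of 3 further members picked after their values were seen, the AP-1 subunits Fos and Junb had log2 ratios of -1.84 and -1.79, whereas Jun was at 133 CPM against 166 CPM (-0.31).

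Per cell, the 21 immediate early genes together took a median of 2296 CPM in cluster 6, with a 5th to 95th percentile range of 902 to 8486. In the other cDC2s the median was 7979 CPM (3506 to 16286), and the medians of the other clusters ran from 6187 CPM in cluster 7 to 10068 CPM in cluster 8. Thus 296 of the 430 cells (68.8%) lay under the 5th percentile of the other cDC2s, while 25 cells (5.81%) lay above their median. The cluster was low as a population but not uniform. Across the 430 cells, the summed level had a Spearman rho of 0.087 with the mitochondrial share and -0.078 with depth; these are quantities from the same UMIs, given as a description.

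**Figure D2:**
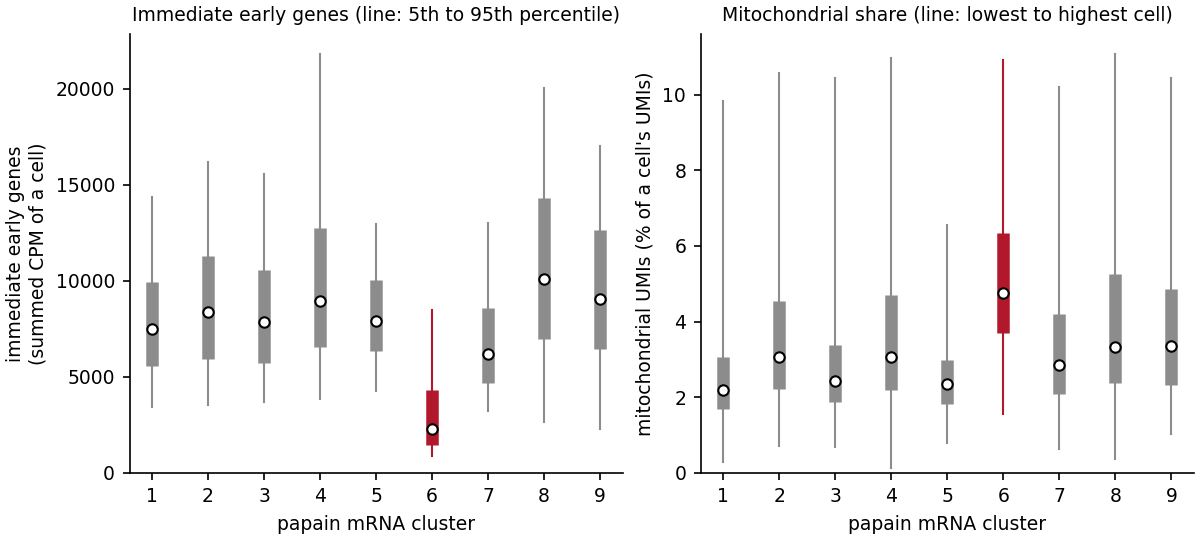
Left, summed CPM of immediate early genes per cell (circle, median; thick bar, interquartile range; thin line, 5th to 95th percentile); right, share of a cell's UMIs from mitochondrial genes (thin line, lowest to highest cell), by papain cluster. Cluster 6 (red) has the lowest median on the left, 2296 CPM, and the highest on the right, 4.75%.

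Cells of cluster 6 differed from the other cDC2s in quality measures. The mitochondrial share had a median of 4.75% (range 1.55 to 10.9%) against 2.62% in the other cDC2s. It was the highest of the 9 clusters, the others having medians of 2.18 to 3.36%. Most of this share was the mitochondrial ribosomal RNA mt-Rnr2, at 38998 CPM against 21152 CPM. The mRNAs of the mitochondrial respiratory chain differed less, with sums of 6138 CPM against 5520 CPM. Depth was lower, with a median of 11728 UMIs per cell (5358 to 19694) against 15111, and so was the number of antibody counts, 2686 against 3801. Detected genes came to 2984.5 against 3365, but after each cell was thinned to 8856 UMIs they were nearly equal, 2512 in 376 cells and 2521 in 5195 cells (54 and 565 cells were too shallow). The low genes were therefore also compared within bands of mitochondrial share and of depth. The 127 genes were picked as low in these same cells, so the counts describe them and test nothing. The lowest mitochondrial band had no lower bound and was only loosely matched. Its 4199 other cDC2s had a median share of 2.22%. Within 4 bands of mitochondrial share holding 107 or 108 cells of cluster 6 each, 121, 105, 95 and 90 of the 127 genes remained at least 2-fold lower, from the lowest band to the highest, with medians of -1.76, -1.45, -1.40 and -1.30. Over all genes, 5.33%, 4.01%, 4.07% and 3.65% were that much lower in these bands. Within 3 bands of depth, from shallow to deep, the numbers were 119, 117 and 122 of the 127, and 6.06%, 5.13% and 5.12% of all genes. For Nr4a3 the log2 ratio in the mitochondrial bands was -3.30, -3.75, -3.71 and -3.52, and for Ccr7 it was -2.14, -2.14, -1.96 and -1.72. The differences were thus smaller for Ccr7 among cells of high mitochondrial share and similar for Nr4a3. For other genes the size varied more between bands. Cxcl1 was at -2.87, -2.65, -1.24 and -0.82 in the 4 bands, and Cxcl2 at -2.20, -1.62, -0.85 and -2.49. Mki67 went from -3.74 in the lowest band to -0.57 in the highest, and Tnfsf9 from -4.99 to -2.16.

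Most inhibitors and subunits of NF-kB were lower, by unequal amounts. Of 15 listed genes 13 reached 50 CPM, of which 12 were below 0 and 5 at least 2-fold lower, with a list median of -0.45. The atypical inhibitor Nfkbiz (IκBζ) was at 50.5 CPM against 421 CPM in the other cDC2s (log2 ratio -3.03, -3.23 to -2.85). Tnfaip3, the ubiquitin-editing enzyme A20 that curbs NF-kB signalling, was at 194 CPM against 636 CPM (-1.70). Nfkbia, the classical inhibitor IκBα, was at 1193 CPM against 3499 CPM (-1.55), with 2497 to 4418 CPM in the other clusters. Of the subunits, Rel was at 324 CPM against 1014 CPM (-1.64). A further 2, picked after their values were seen, were close to the other cDC2s, with log2 ratios of -0.10 for Rela and 0.19 for Relb, the 1 gene above 0.

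Several inflammatory cytokine and chemokine genes were low, while other chemokine genes lay within 2-fold. Il1b, the inflammatory cytokine IL-1β, was at 31.7 CPM against 410 CPM (log2 ratio -3.65, -3.89 to -3.42), and at 139 to 754 CPM in the other clusters. The neutrophil-attracting chemokines Cxcl1 and Cxcl2 were at 68.7 and 32.5 CPM against 441 and 168 CPM (log2 ratios -2.66 and -2.34); clusters 4 and 7 had nearly the same low Cxcl1 level, 77.7 and 86.2 CPM. Ptgs2, the inducible cyclooxygenase, was at 4.70 CPM against 84.3 CPM (-3.90). By contrast Ccl5, a chemokine for effector T cells, was at 8194 CPM against 7629 CPM (0.10), and Ccl22 and Ccl17, ligands of CCR4, had log2 ratios of -0.40 and -0.51. Of the 4 cytokine genes of at least 50 CPM 2 were 2-fold lower, Il1b and Ebi3 (-1.12), and of the 7 chemokine genes 2, Cxcl1 and Cxcl2. Ebi3 was lower in cluster 9, at 24.4 CPM, than in cluster 6, at 36.4 CPM. Below 50 CPM, in genes picked after their values were seen, the IL-12 subunit gene Il12b had 1 UMI in cluster 6, 0.196 CPM (interval up to 1.09), against 45.5 CPM (log2 ratio -5.28, -5.58 to -4.43), and was found in 0.233% of cells against 13.9%. Il6, Osm and Tnf, further inflammatory cytokine genes, had log2 ratios of -2.44, -1.69 and -1.53. The T cell growth factor gene Il2 was scarce. It had 20 UMIs in cluster 6, 3.92 CPM (2.39 to 6.05), against 4.24 CPM in the other cDC2s, a log2 ratio of -0.09 (-0.74 to 0.54). After thinning, 3.62% of cells of cluster 6 and 3.70% of the other cDC2s had an Il2 UMI. The B cell gene Ighm, which cDC2s should lack, was found in 2.79% of the cells of cluster 6 without thinning, beside 4.65% for Il2, and in 5.85% of the other cDC2s, beside 6.53% for Il2.

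Promoter sequences are shown for 4 of the low genes, chosen after their values were seen, because short NF-kB and cAMP-response letters stand close to their starts. Each is the 150 bases before the RefSeq start on the gene's strand (GRCm38.p6), with the motif in capitals. These lie at chr5:90891095-90891244 (plus strand) for Cxcl1, chr5:90903749-90903898 (plus) for Cxcl2, chr12:55492648-55492797 (minus) for Nfkbia and chr17:26508473-26508622 (minus) for Dusp1, a MAP kinase phosphatase with 406 CPM in cluster 6 and 878 CPM in the other cDC2s.
Cxcl1: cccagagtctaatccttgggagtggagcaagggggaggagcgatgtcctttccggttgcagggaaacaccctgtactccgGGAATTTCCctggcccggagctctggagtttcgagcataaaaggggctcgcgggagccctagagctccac
Cxcl2: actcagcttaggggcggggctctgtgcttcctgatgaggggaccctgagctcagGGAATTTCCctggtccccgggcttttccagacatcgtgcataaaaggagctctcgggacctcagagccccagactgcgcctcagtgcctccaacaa
Nfkbia: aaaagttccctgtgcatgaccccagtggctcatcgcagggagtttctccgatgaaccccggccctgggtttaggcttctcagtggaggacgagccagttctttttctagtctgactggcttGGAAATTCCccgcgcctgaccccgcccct
Dusp1: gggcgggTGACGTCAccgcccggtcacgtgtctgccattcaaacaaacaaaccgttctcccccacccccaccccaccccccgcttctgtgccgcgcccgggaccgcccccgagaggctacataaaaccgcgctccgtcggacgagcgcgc
The letters GGAATTTCC (GGAAATTCC on the other strand) begin 70 bases before the start in Cxcl1, 96 in Cxcl2 and 29 in Nfkbia. In windows from 250 bases before to 50 after the start, they were found in 4 of the 95 low genes with a window (4.21%), which were these 3 and Tnfaip3, in 15 of 1915 genes of at least 50 CPM (0.783%) and in 103 of all 27025 genes with a window (0.381%). The letters TGACGTCA, which read the same on both strands and do not overlap the first motif in these sequences, were found in 6 of the 95 (6.32%), in 73 of the 1915 (3.81%) and in 549 of all genes (2.03%). A match describes the sequence and does not show that a factor binds there.

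Genes of DC migration and maturation divided into a few low and many like genes. Ccr7 was found in 98.6% of the cells of cluster 6 but at 711 CPM, against 3357 CPM in the other cDC2s and 2846 to 4332 CPM in the other clusters (log2 ratio -2.24, -2.29 to -2.19). Cd83, a surface marker of mature DCs, was at 416 CPM against 1438 CPM (-1.79), below the 1148 to 1938 CPM of the other clusters. Of the 13 measured genes of the maturation list, these 2 were at least 2-fold lower and 6 had a ratio above 0. Among other genes of cell guidance, the prostaglandin E2 receptor Ptger4 was at 91.0 CPM against 293 CPM (-1.68). The oxysterol receptor Gpr183 was at 246 CPM against 525 CPM (-1.09), but lower still in cluster 9, at 85.1 CPM. With Ccr7 these made 3 of 4 measured genes of the migration list at least 2-fold lower. Weighted to the mitochondrial shares of cluster 6, the comparison gave -0.88 for Gpr183, -0.76 for Ebi3 and -0.67 for Tubb6, a cytoskeletal gene. All were under 2-fold. Tubb6 was lower in cluster 7, at 15.8 CPM, than in cluster 6, at 36.8 CPM. The messenger of the actin-bundling protein fascin (Fscn1), picked after its value was seen, had a log2 ratio of -0.28, and Actb was at 25391 CPM against 25470 CPM (0.00).

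Costimulatory and antigen presentation genes showed a mixed picture. Tnfsf9, the ligand of the costimulatory receptor 4-1BB, was at 11.0 CPM against 176 CPM (log2 ratio -3.88, -4.27 to -3.51). Cd80, a ligand of CD28, was at 21.7 CPM against 68.6 CPM (-1.61), and Cd274, encoding PD-L1, at 136 CPM against 268 CPM (-0.97). These first 2 were the only ones of 7 measured ligands past 2-fold. Cd40, through which T cells signal to DCs, was at 507 CPM against 737 CPM (-0.54), inside the 118 to 1042 CPM of the other clusters; the log2 ratio was -0.77 among CD301bhi cells, -0.33 among CD301bint cells and 0.11 among CD301blo cells. All 6 measured MHC class II genes were below 0 (median -0.43; H2-Ab1 352 CPM against 650 CPM, -0.89), and 10 of 11 class I genes above 0 (median 0.12; Psmb9, an immunoproteasome subunit, 546 CPM against 460 CPM, 0.25). No gene of either list was past 2-fold. H2-Ab1 was at 3149 and 1679 CPM in clusters 4 and 7, and at 277 to 517 CPM in the other 6 clusters. Clusters 1 and 2 correlated most with cluster 6 across genes, but only at 0.0080 and 0.0059. Against these 2 clusters the direction turned for H2-Aa, H2-Eb1 and Cd74 (log2 ratios 0.12, 0.26 and 0.07) and H2-Ab1 was at -0.05. Il2ra, the receptor chain CD25, was at 119 CPM against 128 CPM (-0.11).

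Transcription factors of DC identity were unequal. Of 14 measured genes 5 were at least 2-fold lower. Runx3 was at 14.9 CPM against 73.8 CPM (log2 ratio -2.24), Bhlhe40 at 98.3 CPM against 323 CPM (-1.70), Klf4 at 44.2 CPM against 113 CPM (-1.33) and Id2 at 696 CPM against 1714 CPM (-1.30); Irf8, which promotes the cDC1 lineage and was named after its value was seen, was at 100.05 CPM against 243 CPM (-1.27). Irf8 was lower still in the lowest other cluster, at 82.5 CPM. The survival genes Pmaip1 (Noxa, which favours death) and Bcl2l1 (Bcl-xL, which opposes it) were both low, with log2 ratios of -1.62 and -1.58. The other 8 measured genes of that list lay within 2-fold. Bcl2l1 was lower in cluster 9, at 24.8 CPM, than in cluster 6, at 40.1 CPM. Of the feedback inhibitors of cytokine receptors, Socs3 and Socs1 had log2 ratios of -2.13 and -1.28, whereas, in genes picked after their values were seen, Socs2 was at 910.0 CPM against 891 CPM (0.03) and Cish at 3.72 CPM against 3.40 CPM (0.10). Mki67, the proliferation antigen Ki-67, was at 8.81 CPM against 96.1 CPM (-3.31; -0.57 in the band of highest mitochondrial share), but it was the only one of 4 measured cell cycle genes past 2-fold, and the list median was -0.22. The other 3, Pcna, Tuba1b and Tubb5, had log2 ratios of -0.38, -0.06 and 0.22. Mki67 was also scarce in clusters 7 and 4, at 15.6 and 20.1 CPM.

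The remaining lists had few or no genes past 2-fold. Over all genes of at least 50 CPM, 4.68% were at least 2-fold lower, so 1 or 2 low members say little about a list. Socs1 belongs to 2 of these lists. At least 2-fold lower were 1 of 4 measured regulatory DC genes (Socs1; median -0.74), 2 of 8 of the TSLP, IL-4 and IL-13 response (Socs3 and Socs1; -0.10), 1 of 7 of the unfolded protein response (Herpud1; -0.06) and 1 of 14 of the actin cytoskeleton (Tubb6; -0.07). No gene was past 2-fold among 8 TNF receptor genes (median 0.00), 3 of the IL-2 receptor (-0.38), 8 of the interferon response (-0.13), 9 heat shock genes (-0.09), 4 of glycolysis and hypoxia (-0.20), 8 of cholesterol synthesis and efflux (-0.10), 10 lysosomal genes (-0.02), 3 Notch pathway genes (-0.21) and 6 integrin and adhesion genes (-0.22). Of pattern receptors only Ly75 reached 50 CPM (0.02). Below that level, some genes were picked after their values were seen. Of these, the β-glucan receptor gene Clec7a was at 1.96 CPM against 32.3 CPM (-3.49, -4.15 to -2.81). Cd14, with 6 UMIs in cluster 6, was at -1.60 and Tlr2 at -1.09. Not all members were low: Clec12a and Mrc1, likewise picked, were at -0.15 and -0.01, and Mgl2 was at 0.32. Mrc1 and Mgl2 had only 4 and 7 UMIs in cluster 6. Of the proteins with an antibody only Sirpa and H2-Ab1 reached 50 CPM (-0.60 and -0.89), and no gene of lymph node resident or immature DCs reached 50 CPM. Interferon response genes give an example of the spread within a list, with 88.5 CPM against 64.4 CPM for Mx1 (0.45) and 146 CPM against 229 CPM for Isg15 (-0.65).

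**Figure D3:**
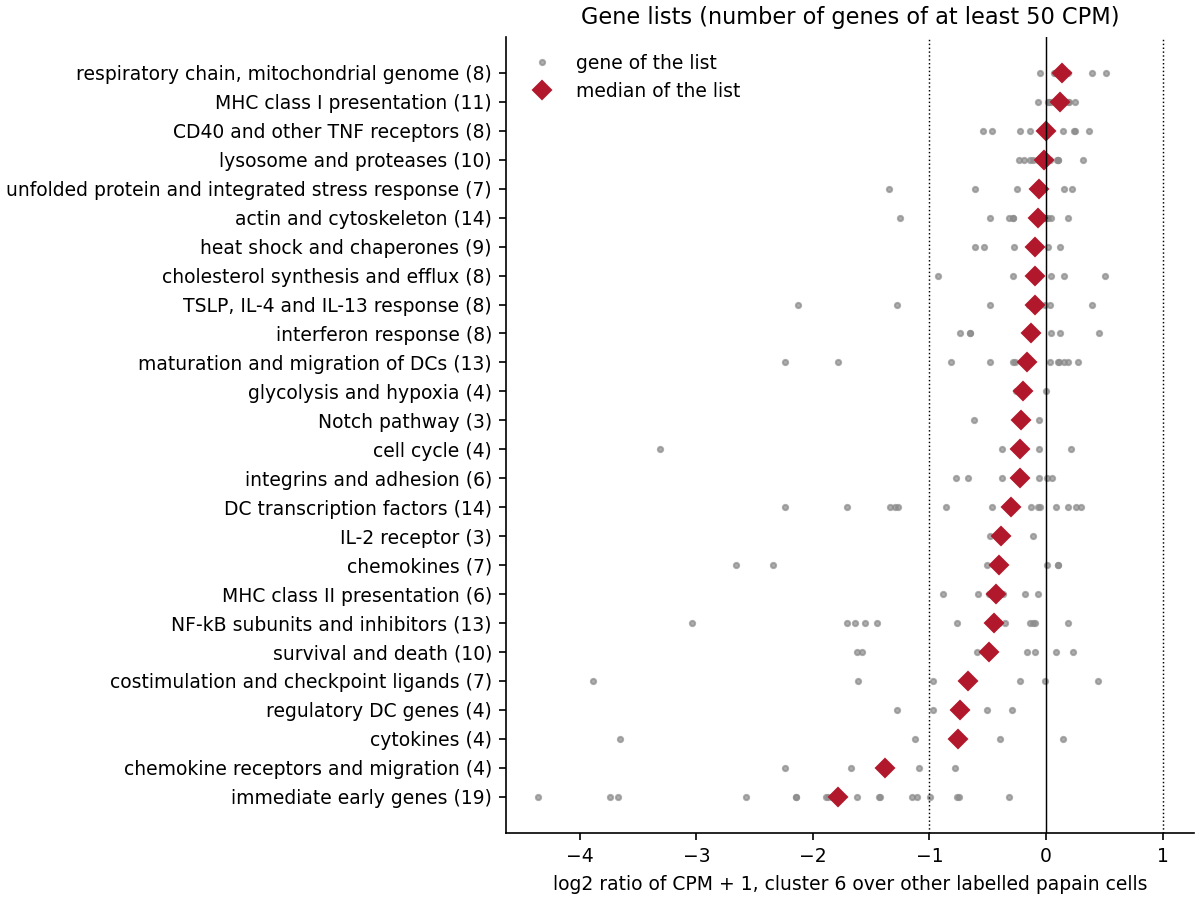
Log2 ratios of cluster 6 to the other cDC2s (x axis) for the genes of 26 lists with at least 3 genes of 50 CPM or more (grey points) and their medians (red diamonds); the number of genes is in parentheses. The immediate early list lies farthest to the left, with a median of -1.79, and the mitochondrial respiratory chain and MHC class I lists lie farthest to the right, at 0.13 and 0.12.

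Few genes were high in cluster 6. The kinase gene Atr, which acts in DNA damage signalling, was at 56.4 CPM against 22.6 CPM (log2 ratio 1.28, 1.06 to 1.51), although it was found in only 27.4% of the cells against 24.2%. The unnamed locus AC160336.1 was at 153 CPM against 63.1 CPM (1.27), Ndrg3 at 81.1 CPM against 36.7 CPM (1.12), and UMIs at the locus Mir6236, which in a library of 3' ends do not measure a mature miRNA, at 367 CPM against 170 CPM (1.11). Of these, Atr, Ndrg3 and AC160336.1 stood above all other clusters (at most 34.4, 61.9 and 131 CPM), while Mir6236 reached 496 CPM in another cluster. With the other cDC2s weighted to the mitochondrial shares of cluster 6, Atr alone stayed past 2-fold, and Ndrg3, Mir6236 and AC160336.1 were at 0.80, 0.58 and 1.00 (0.998 before rounding). The mitochondrial ribosomal RNAs mt-Rnr2 and mt-Rnr1 had log2 ratios of 0.88 and 0.97, and mt-Rnr2 took 38998 CPM against 21152 CPM. These RNAs are part of the mitochondrial share itself: within its 4 bands mt-Rnr2 was at 0.38, -0.06, 0.01 and 0.00, and mt-Rnr1 at 0.72, 0.39, 0.39 and 0.19. The mRNAs of the mitochondrial respiratory chain moved less, with 0 of 8 past 2-fold, 7 above 0 and a median of 0.13. Malat1, a nuclear long noncoding RNA, was at 44820 CPM against 33079 CPM (0.44), above the 23817 to 43785 CPM of the other clusters. Abcg1, a cholesterol exporter, was at 768 CPM against 541 CPM (0.50), also above all other clusters (371 to 672 CPM).

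The antibodies gave measurements that the mRNA clusters did not use. However, all cells were sorted as MHCIIhi CD11c+, and the cDC2s were set apart beforehand by surface CD172a, CD326 and XCR1. Similar values of these markers were therefore partly fixed by that choice. Of the 430 cells, 104 were CD301bhi in the authors' classes (24.2%, 20.2 to 28.5%), 149 CD301bint (34.7%, 30.2 to 39.4%) and 177 CD301blo (41.2%, 36.5 to 46.0%). Among the other cDC2s 48.4% were CD301bhi and 22.4% CD301blo. With classes cut instead at tertiles of all numbered papain cells, 15.1% of cluster 6 fell in the upper class. The median CD301b antibody value, on a natural logarithm scale, was 0.886 against 1.60. Clusters 4, 9 and 7 had lower medians (0.307, 0.371 and 0.703) and the other 5 clusters higher ones (1.43 to 2.08), with wide overlap of the interquartile ranges of clusters 6 and 7. The other 11 antibodies differed by at most 0.133 in median. CD172a, the cDC2 marker, was at 1.85 against 1.92, MHC II at 5.13 against 5.06 and CD11c at 2.05 against 2.18. The Langerhans cell marker CD326 was at 0.443 against 0.390 and the cDC1 marker XCR1 at 0.0991 against 0.0768. Both lay near the floor, with median counts of 6 against 8 for CD326 and 0 in both groups for XCR1. Within the CD301blo class, CD11c was 0.315 lower in cluster 6 than in the other cDC2s. The tag of the CD301b antibody, by which the classes are counted, is listed beside those of CD11b and CD24, shown in capitals because all 15 bases are the same; these 2 antibodies could not be read as separate markers.
CD301b: cttgccttgcgattt
CD11b: TATATCTTTGCCGCA
CD24: TATATCTTTGCCGCA

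**Figure D4:**
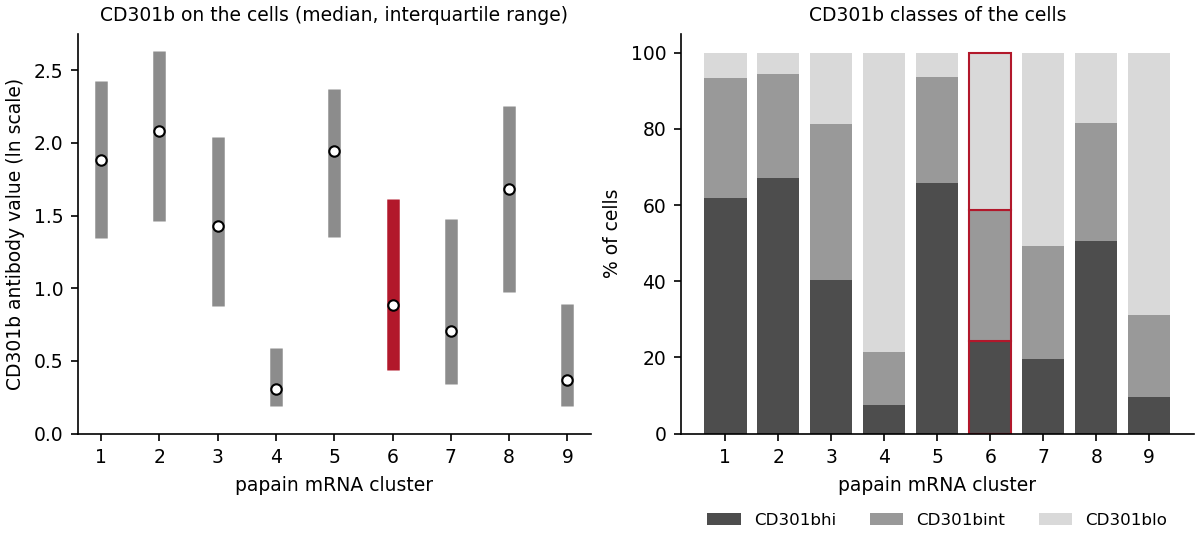
Left, CD301b antibody value (natural logarithm scale; circle, median; bar, interquartile range) by papain cluster; right, percent of the cells of each cluster in the authors' CD301bhi, CD301bint and CD301blo classes. Cluster 6 (red) has a median of 0.886 and 24.2% CD301bhi cells, between cluster 7 and cluster 3 on both measures.

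Most of the low genes were also at least 2-fold lower within each CD301b class. They were picked as low over these same cells together, so the counts by class are a description and test nothing. Of the 127 genes, 120 were at least 2-fold lower among CD301bhi cells, 116 among CD301bint cells and 107 among CD301blo cells, where over all genes 5.03%, 4.41% and 5.27% were that much lower. Egr1 was at 9.54 against 195 CPM in CD301bhi cells, 5.54 against 170 CPM in CD301bint cells and 7.34 against 83.3 CPM in CD301blo cells. Ccr7 was at 614 against 3337 CPM, 678 against 3254 CPM and 799 against 3592 CPM in the same order. Between CD301bhi and CD301blo cells of cluster 6 itself, 10 of 2716 genes were at least 2-fold higher (0.368%) and 13 lower (0.479%). The growth factor gene Csf1 was at 77.1 CPM in CD301bhi and 30.8 CPM in CD301blo cells (log2 ratio 1.30) and the nuclease gene Dnase1l3 at 187 and 76.8 CPM (1.27). The chemokine gene Ccl6 was at 17.5 and 58.7 CPM (-1.69) and H2-Ab1 at 196 and 486 CPM (-1.31). For Csf1 and H2-Ab1 the other cDC2s had the same direction (1.69 and -2.05), and for Ccl6 their value was -0.06.

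The label cDC2 rests on surface CD172a, and mRNA markers bore on it only in part. All 4 measured genes of the cDC2 marker list were below 0, with a median of -0.73. Sirpa, which encodes CD172a, was at 46.6 CPM against 71.2 CPM (log2 ratio -0.60), and Irf4, a transcription factor of cDC2s named after its value was seen, at 40.7 CPM against 74.8 CPM (-0.86); Klf4 and Ccl17 were at -1.33 and -0.51. Cd209a had 0 UMIs, which allows up to 0.587 CPM (3 counts), and 0.474 CPM in the other cDC2s, so no difference was detectable. Mgl2, which encodes CD301b, was at 1.37 CPM against 0.893 CPM, and at 0 to 7.40 CPM in the other clusters, so its messenger was scarce in cells that carried the surface protein. The summed B cell, T cell and monocyte or macrophage lists came to 9.01, 8.61 and 30.5 CPM, against 14.6, 21.0 and 60.2 CPM in the other cDC2s, and those of neutrophils, of mast cells or basophils and of erythroid cells or platelets stayed under 1 CPM. Langerhans cell, keratinocyte and stromal or endothelial lists came to 10.4, 4.89 and 1.96 CPM against 11.1, 6.18 and 1.86 CPM. The plasmacytoid DC list came to 519.8 CPM against 487 CPM, the cDC1 list to 396 CPM against 499.9 CPM and the NK cell list to 54.4 CPM against 59.5 CPM, beside 669 CPM against 1026 CPM for the cDC2 list. Most of these sums came from Bst2, Tcf4 and Spib (log2 ratios 0.15, 0.03 and 0.30), from Irf8 and Batf3 (-1.27 and 0.26) and from Klrk1 (-0.09). A Cd3e or Trac UMI was noted for 18 cells (4.19%), against 3.98% of the other cDC2s. No barcode of cluster 6 was among the 2 that occurred in both libraries.

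No other papain cluster correlated with cluster 6 by more than 0.0080. Over 4133 genes, the Pearson correlation of expression, centred on the mean of a library's own clusters, was highest with clusters 1 and 2 (0.0080 and 0.0059) and lowest with cluster 9 at -0.31; clusters of a library share its mean, which pulls such values down. Against clusters 1 and 2 alone 123 of the 127 genes were at least 2-fold lower, where 4.80% of all genes were. Of the naive clusters, number 3 was the most like (0.30). It had 432 cells and shared some features, with a mitochondrial share of 6.58%, the highest of the 7 naive clusters, and a CD301bhi share of 26.4%. Of the 127 genes, 26 were at least 2-fold lower there than in the other naive cDC2s (4.90% of 2693 genes were) and 108 had a ratio below 0, with a median of -0.39 against -0.06 over all genes. The share of all genes below 0 is not given for comparison, and their median was itself below 0. The 8 lowest genes of papain cluster 6 had naive ratios from -0.46 for Nr4a3 to -2.06 for Tnfsf9, with -0.78 for Egr1 and -1.15 for Il1b. Ccr7 was at 3799 against 3640 CPM (0.06), Cd83 had a ratio of -0.09, and the immediate early list a median of -0.06. Of the genes that were high, Atr, mt-Rnr2 and Malat1 had naive ratios of 1.36, 0.96 and 0.85. The naive cluster was chosen for its likeness in these genes, and lymph node site and immunization cannot be told apart between the libraries.

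Within cluster 6, the highest ratios of variance to mean belonged to abundant transcripts, and this measure rises with the level of a gene. After thinning 376 cells to one depth, the variance over the mean was 85.4 for Malat1, 71.7 for mt-Rnr2, 66.1 for Ccl5, 49.5 for Cd74, the MHC class II invariant chain, and 48.7 for Actb, beside a median of 1.23 over 2488 genes. For Ccl5, with a mean of 73.6 UMIs, the 10 highest cells held 10.4% of the UMIs and 1 cell had 569. The 10 highest cells held 5.95% for Malat1 but 35.1% for the less abundant H2-Ab1, so the ranking does not order genes by relative spread.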

How the data were processed

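The authors ran Cell Ranger 3.0.1 (mm10) and Partek Flow, per the labels. The deposited expression table holds, per cell, the log2 of CPM + 1. UMIs were recovered from it, and 100% of those up to 50 lay within 0.02 of a whole number. Antibody data were deposited on a natural log scale with their totals as counts, and the deposited number of expressed genes is also in counts. The authors' total for expression is a score, summing log2 values, and their mitochondrial percent was not used, since it was deposited as a share of those values; it was computed anew from UMIs. UMIs were summed over cells, and 1 CPM was added before ratios were taken; the bounds of a ratio join both exact Poisson intervals and are wider than 95%. Shares have exact Clopper-Pearson intervals. Depth in cluster 6 was 5358 to 19694 UMIs per cell. The computation of these ratios was tested on simulated data. No doublet caller was run and no p-value was computed. The members and gene lists were chosen with earlier results of these data known. Genes were named by rule, and exceptions are marked. The rule took the 12 highest and 8 lowest ratios among genes of at least 50 CPM found in at least 10% of cells. It also took the 5 most above and 3 most below all other clusters, and up to 4 per list. Added were genes of the antibodies' proteins, Il2, Il2ra and Cd40. The last were the 5 with the highest variance over the mean, and 5 in each direction between CD301b classes. All 29 gene lists and 13 marker lists were summarised by counts and medians. Promoters came from RefSeq windows (GRCm38.p6), found for 95 of the 127 lower genes. Alternatives changed the pseudocount, the minimum, the cells, the scaling and the weights of the comparison cells. Python 3.11.15, numpy 2.4.6, scipy 1.17.1 and pandas 2.3.3 were used.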

Additional observations from a re-analysis of the deposited data

How the results depend on the processing

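No paired analysis was possible because each condition was a single library, and no replicate could be left out. The count of 127 lower genes stayed between 110 and 149 under 12 of the 13 alternatives, and 100 to 127 of the same genes were among them. Without a minimum CPM, 394 genes were lower and 171 higher, and the cell cycle list median log2 ratio was -0.00679. The 4 higher genes were few and less stable: there were 8 against clusters 1 and 2 alone, and, in 3 alternatives chosen after seeing the data, 1 with the other cells weighted to the mitochondrial shares of cluster 6, 2 with weights by depth and 8 with CPM taken without mitochondrial genes. The CD301bhi share was 15.1% with tertiles over all numbered papain cells. Of 38 named genes past 2-fold, 32 to 38 were still past it under each alternative, and no direction among them turned. Ndrg3, Mir6236 and AC160336.1 fell to log2 ratios of 0.80, 0.58 and 1.00 with mitochondrial weights. The cause was not tested. At this depth, genes of a few CPM such as Il2 cannot show a difference of less than about 1.5-fold.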
